A study of Mus musculus with 4 samples.

Results

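Reticular cells with a high level of *Spp1*, the gene of osteopontin, were examined among Cxcl12CE-tdTomato+ cells profiled by single-cell RNA-seq 7 days after marrow ablation. A reticular cell was a cell in which *Cxcl12* reached 0.5% of the UMIs (unique molecular identifiers, each standing for 1 captured mRNA molecule), with at least 2 UMIs of *Adipoq*, at most 1 of *Wif1*, none of *Ptprc*, and *Bglap* plus *Bglap2* under 1% of UMIs. Spp1-high cells were the reticular cells in which *Spp1* reached 0.2% of the UMIs. There were 142 of them among 9795 cells, and 3143 reticular cells under the cutoff (Spp1-low cells) served as the comparison. Because these 7 genes chose the cells, their levels are given as a description and were not tested.

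The mice carried Cxcl12-iCreER, a bacterial artificial chromosome transgene in which *Cxcl12* regulatory sequence drives a tamoxifen-inducible Cre, together with 1 R26R(tdTomato/+) reporter allele. Tamoxifen was given 7 days before surgery, so that cells expressing the transgene at that time and their progeny were red. In ABL samples the marrow of the right femur had been removed mechanically through the knee, and CONT samples came from untreated left femurs. Both kinds carried the same alleles and received tamoxifen, and the tdTomato+ cells of each were sorted and sequenced as separate libraries, with 2 biological replicates for either condition. Replicate 1 pooled 7 mice and was made with Chromium version 2, and replicate 2 was made with version 3, so replicate and chemistry cannot be told apart. The age and sex of the mice and the number of mice in replicate 2 are not given in the sources used here. The libraries are called CONT1, ABL1, CONT2 and ABL2 after condition and replicate, and 4 values in a row stand in this order. Total UMIs came to 44784072, 22889380, 40486876 and 41536563.

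Reticular cells form the stromal network of bone marrow, in which they enwrap sinusoids and secrete Cxcl12 and stem cell factor (*Kitl*), the signals that retain and maintain hematopoietic stem cells. They carry transcripts of the leptin receptor and of adiponectin, and some can turn towards osteoblasts after injury. Osteopontin is a secreted, phosphorylated glycoprotein with an RGD motif that binds integrins and CD44. It is abundant in bone matrix, where it limits crystal growth and anchors osteoclasts, and in marrow it is known as a negative regulator of the stem cell pool.

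The libraries differed in ways that the conditions do not explain. *Xist*, which is transcribed from the inactive X chromosome of female cells, stood at 547 CPM (that is, out of each 1000000 UMIs in the summed cells) in Spp1-low cells of CONT1, 898 in ABL1 and 872 in CONT2, and at 0 in ABL2. All sex-typed reticular cells of ABL2 were thus male, whereas the other 3 libraries held cells of both sexes. Sex composition differed between CONT and ABL in both replicates, since male-typed cells made up 25.2%, 8.64%, 19.96% and 62.1% of the Spp1-low cells. Among Spp1-high cells 33.3%, 35.3%, 75.0% and 62.2% were male-typed, so sex composition differed between the classes in ABL1 and CONT2 and hardly in ABL2. In CONT1 the female-typed share was also larger among Spp1-high cells, at 53.3% against 41.2%. CONT2 was mostly *Xist*-positive and ABL2 had no *Xist*, so these libraries may not be femurs of the same mice. Shares and some of the class differences are also given within male-typed cells. Cells called from different libraries shared 5 barcodes in replicate 1, where 6.67 would be shared by chance, and 1 barcode in replicate 2, where 0.896 would be.

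*Spp1* (chromosome 5, 104435118 to 104441050, plus strand, GRCm38) reached 2971 CPM in the Spp1-high cells of CONT1, 9690 in ABL1, 4264 in CONT2 and 4767 in ABL2. In Spp1-low cells it stood at 90.7, 379, 63.4 and 552 CPM in the same order. The median Spp1-high cell gave 0.293%, 0.447%, 0.36% and 0.328% of its UMIs to *Spp1*. Many cells lay close to the cutoff, with 9 of 15, 5 of 17, 11 of 36 and 36 of 74 under 0.3%, and a few lay far above it. The highest single cell of each library gave 0.609%, 6.70%, 0.905% and 2.70%, and in ABL1 that 1 cell held 519 of the 1109 *Spp1* UMIs, without which the level was 5529 CPM. The lowest accepted cell had 0.202% in CONT1, 0.20% in ABL1, 0.267% in CONT2 and 0.202% in ABL2. The highest rejected reticular cell had 0.183%, 0.181%, 0.197% and 0.197%. No Spp1-high cell rested on fewer than 9 *Spp1* UMIs.

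**Figure D1:**
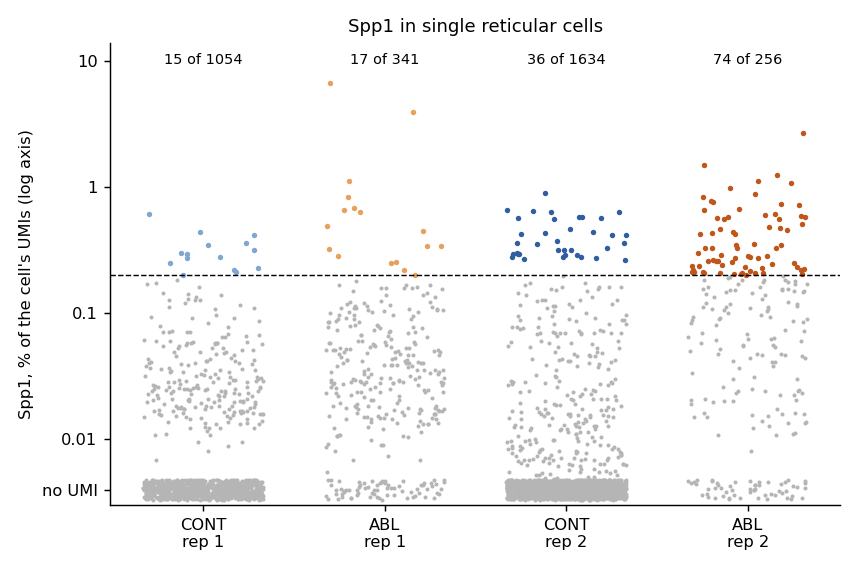
Percent of UMIs from *Spp1* (log axis) in every reticular cell of the 4 libraries. Coloured points are Spp1-high cells, grey points are Spp1-low cells, the dashed line is the cutoff of 0.2%, cells without a *Spp1* UMI are drawn in a band at the bottom, and the counts at the top are Spp1-high of all reticular cells.

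The grey cells below the line differed between conditions too. No *Spp1* UMI was found in 77.9% of the Spp1-low cells of CONT1 and in 82.2% of those of CONT2. In ABL libraries these shares were 21.9% and 30.8%. Free RNA carried *Spp1* as well, since droplets with at most 300 UMIs held 193, 2951, 396 and 2201 *Spp1* CPM in CONT1, ABL1, CONT2 and ABL2. The estimated share of free RNA in Spp1-high cells was 5.94%, 6.61%, 0.599% and 0.919%, which would supply 11.5, 195, 2.37 and 20.2 *Spp1* CPM. The cutoff of 0.2% itself places Spp1-high cells above these values, so the gap is no test of free RNA. In Spp1-low cells the same estimate came to 21.5, 208, 2.88 and 168 CPM, to be set against measured levels of 90.7, 379, 63.4 and 552 CPM. The estimate uses blood cell genes, and in ABL2 it rested on a few Spp1-low cells rich in them: without the cells in which an erythroid or a granulocyte gene list reached 5% of the UMIs, it came to 14.8, 196, 2.88 and 17.4 CPM. Cells with a UMI of *Ptprc*, the pan-leukocyte antigen CD45, are called Ptprc-positive here if they had no *Adipoq* UMI and *Cxcl12* under 0.5% of UMIs. These limits leave out cells with a *Ptprc* UMI and more reticular RNA, so carry-over in all cells with a *Ptprc* UMI was not measured. Among Ptprc-positive cells the cutoff of 0.2% was reached by 0 of 764 in CONT1 and 0 of 196 in CONT2. The exact binomial intervals of these shares, of the kind given for the shares below, reach 0.482% and 1.86%. In ABL1 10 of 303 such cells reached the cutoff, and in ABL2 21 of 548 did.

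The label of reticular cell was checked on markers that the selection did not use. Spp1-high cells carried the leptin receptor gene *Lepr* at 796, 664, 2594 and 636 CPM in CONT1, ABL1, CONT2 and ABL2, against 1222, 726, 2255 and 714 in Spp1-low cells. *Kitl* stood at 574, 402, 1371 and 1190 CPM against 719, 585, 1771 and 1347. The transcription factor *Ebf3*, which maintains the niche function of these cells, stood at 352, 419, 798 and 503 CPM against 341, 348, 609 and 547. None of these 3 genes passed the test between the classes, and all were present in every library at levels of the same order in both. *Kitl* was nevertheless lower in Spp1-high cells of each library, and *Lepr* in all but CONT2. Of 27 niche and reticular identity genes tested, 0 were higher and 8 lower in Spp1-high cells at an unadjusted edgeR p under 0.05. The osteocyte and late osteoblast marker *Ifitm5* had no UMI in any Spp1-high cell. The list of 14 mature osteoblast and osteocyte markers summed to 6729, 1949, 10580 and 2067 CPM in Spp1-high cells. In Spp1-low cells it summed to 4202, 3207, 7395 and 2907 CPM. Its most abundant gene in each of these sums was *Ibsp*, which encodes bone sialoprotein. Of 4 genes of this list tested 0 passed, with 1 higher and 1 lower at an unadjusted edgeR p under 0.05. The endothelial gene *Cdh5* was at 0 in 3 of the 4 libraries and at 1.62 CPM in ABL2. The *tdTomato* reporter was found in 100%, 94.1%, 91.7% and 98.6% of Spp1-high cells. It was also found in 28.8%, 41.9%, 25.5% and 65.0% of Ptprc-positive cells, so a *tdTomato* UMI alone is weak evidence, most of all in ABL2. Macrophage genes were not absent. The macrophage receptor gene *Csf1r* had no UMI, but the list of 12 macrophage markers summed to 583, 865, 34.5 and 64.7 CPM in Spp1-high cells, with 6, 4, 8 and 5 of its genes at 0, against 838, 763, 36.3 and 90.9 CPM in Spp1-low cells. *Lyz2*, which granulocytes also express, was the most abundant of them in replicate 1 (305.5 and 384.5 CPM) and *Fcer1g* in replicate 2 (20.7 and 37.2 CPM). Of 3 genes of this list tested between the classes 0 passed, with 1 lower at an unadjusted edgeR p under 0.05. The list summed to 16700, 18810, 12130 and 14070 CPM in Ptprc-positive cells. Scrublet, a doublet caller, marked 0 Spp1-high cells.

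Spp1-high cells were a small share of the reticular cells in both CONT libraries and a larger one in both ABL libraries. They made up 1.42% in CONT1 (15 of 1054, 95% exact binomial interval 0.799 to 2.34%) and 4.99% in ABL1 (17 of 341, 2.93 to 7.86%). The CONT2 share was 2.20% (36 of 1634, 1.55 to 3.04%), and that of ABL2 was 28.9% (74 of 256, 23.4 to 34.9%). Within each replicate the CONT and ABL intervals did not overlap. In replicate 1 they overlapped with *Cxcl12* at 1% of UMIs (CONT1 1.32%, 0.705 to 2.25%, and ABL1 3.27%, 1.58 to 5.93%). They also overlapped there with at least 4 *Adipoq* UMIs (1.33%, 0.687 to 2.30%, and 3.92%, 2.04 to 6.75%). The intervals cover counting error only, *Spp1* chose the cells, and 2 libraries per condition cannot reach a two-sided p of 0.05 in an exact test, so the shares were not tested. Thinning every cell to 2700 UMIs gave 0.988%, 5.81%, 2.90% and 27.4% in CONT1, ABL1, CONT2 and ABL2.

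The share also differed between cells of male and female type. A cell was typed as male when it had a UMI of *Ddx3y*, *Eif2s3y*, *Kdm5d* or *Uty*, which lie on the Y chromosome, and none of *Xist*, and as female in the reverse case. Cells with UMIs of both kinds were not typed. They numbered 1, 3, 1 and 0 among Spp1-high cells of CONT1, ABL1, CONT2 and ABL2, and 54, 7, 35 and 0 among Spp1-low cells. Whether they are doublets was not tested. In CONT2, 27 of 346 male-typed reticular cells were Spp1-high (7.80%, 5.21 to 11.2%), against 1 of 1200 female-typed cells (0.0833%, 0.00211 to 0.463%). In ABL1 they were 6 of 34 male-typed cells (17.6%, 6.76 to 34.5%) and 4 of 265 female-typed cells (1.51%, 0.413 to 3.82%). The CONT library of replicate 1 showed no such gap, with 5 of 267 male-typed cells (1.87%, 0.611 to 4.32%) and 8 of 436 female-typed cells (1.83%, 0.795 to 3.58%). In ABL2, which had no female-typed reticular cell, the share was 46 of 159 male-typed cells (28.9%, 22.0 to 36.6%).

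Read within male-typed cells, the ABL share lay above the CONT share in both replicates (17.6% against 1.87%, and 28.9% against 7.80%). Within female-typed cells only replicate 1 could be compared, and there the shares were 1.51% in ABL and 1.83% in CONT. The pooled mice are not separated in the libraries, so the sex of a cell and the mouse it came from cannot be told apart.

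**Figure D2:**
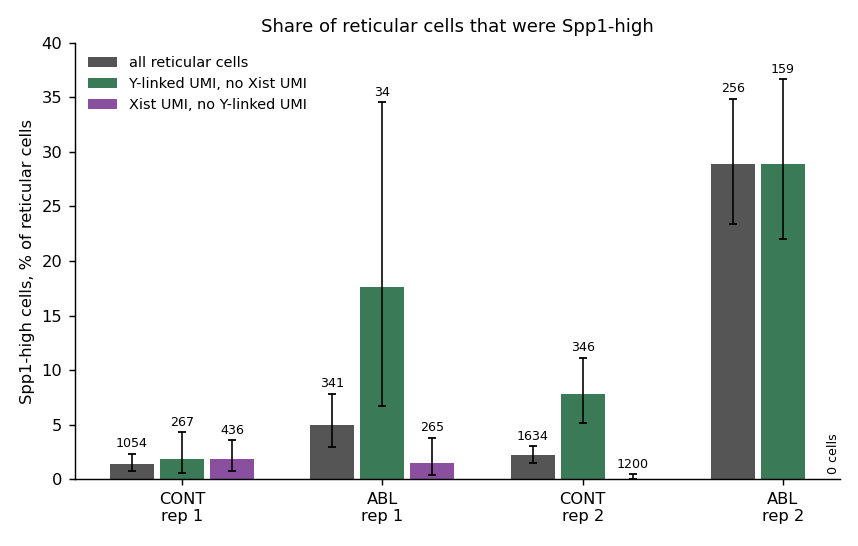
Spp1-high cells as a percent of reticular cells in each library, over all reticular cells and over those typed male or female. Bars are shares, lines are 95% exact binomial intervals and the number above each bar is the count of reticular cells, and both male-typed ABL shares lie above the male-typed CONT share of the same replicate.

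Spp1-high and Spp1-low cells of the same library were then compared over all genes, to find what else marked the Spp1-high cells. The clearest difference was a higher level of *Mgp*, the gene of matrix Gla protein, a vitamin K-dependent inhibitor of calcification made by cartilage and vascular smooth muscle. Few other genes moved, and most of those that did were lower: among them were *Igfbp5*, an insulin-like growth factor binding protein abundant in marrow stroma, the complement gene *C4b*, the matrix gene *Prelp*, the growth factor gene *Ptn* and the interferon-induced chemokine gene *Cxcl10*. Genes of osteoblast commitment did not pass the test. Counts were summed per library and class, since cells of 1 library are not replicates, and the 8 sums were fitted in edgeR with the library as a block. Of 8011 genes tested, 2 were higher in Spp1-high cells (0.0250%) and 14 were lower (0.175%) at an adjusted p under 0.05. Leaving out CONT1 lowered the 16 calls to 6, and leaving out each of the other libraries left 13 to 22. With CONT2 limited to male-typed cells, chosen after the data were seen, 15 genes passed, 12 of them among the 16. DESeq2 called 6 and the fit without the library block 0 (112 at an unadjusted p under 0.05).

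*Mgp* (chromosome 6, 136872435 to 136875823, minus strand) stood at 583 CPM in Spp1-high and 146 in Spp1-low cells of CONT1, and at 2420 and 339 CPM in ABL1. In replicate 2 the levels were 202 and 59.6 CPM in CONT, and 1186 and 147 CPM in ABL. The Spp1-high level was the higher of the pair in 4 of 4 libraries, by 3.99-fold, 7.13-fold, 3.40-fold and 8.09-fold. The fitted log2 difference was 2.40 (SE 0.18, edgeR adjusted p = 2.13e-08). It passed in 18 of 20 alternatives, and the exceptions were the fit without the library block (log2 2.60) and the cutoff of 0.5%, which kept 2 libraries (log2 3.20).

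*Mgp* was not spread evenly over the Spp1-high cells. It was found in 8 of 15 cells of CONT1, 12 of 17 of ABL1, 20 of 36 of CONT2 and 24 of 74 of ABL2. The cell with most *Mgp* UMIs held 25.4%, 23.5%, 15.9% and 42.2% of them in these libraries. Without the 3 cells with most UMIs in each library, the levels of the remaining Spp1-high cells were 259, 1247, 144 and 390 CPM, all still above the whole Spp1-low level of the same library. After thinning to 2700 UMIs per cell, an *Mgp* UMI was found in 40%, 64.7%, 30.6% and 25.7% of Spp1-high cells (unthinned 53.3%, 70.6%, 55.6% and 32.4%). The thinned shares were 20.2%, 31.2%, 8.89% and 14.8% in Spp1-low cells. Ptprc-positive cells, which should lack *Mgp*, had thinned shares of 4.71%, 10.6%, 0.510% and 6.93%, below those of Spp1-high cells in each library (median depths of Spp1-high cells 7508, 5947, 11896.5 and 8086 UMIs, and of Ptprc-positive cells 6100.5, 6527, 10080 and 10764.5 UMIs). Wif1-positive cells, which the rule for reticular cells leaves out, had thinned shares of 15.6%, 21.7%, 14.6% and 65.4%, and *Mgp* levels of 121, 121, 146 and 3572 CPM. *Mgp* was thus not particular to Spp1-high cells, and in ABL2 it was found more often and at a higher level in Wif1-positive cells.

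The sex of the cells moved with *Mgp* in part of the libraries. Among Spp1-low cells it stood at 123 CPM in male-typed and 37.3 in female-typed cells of CONT2, and at 1795 and 122 CPM in ABL1. In CONT1 these levels were 162 and 128 CPM. Within male-typed cells the Spp1-high level remained above the Spp1-low level in each library, at 898 against 162, 3148 against 1795, 186 against 123 and 1432 against 156 CPM in CONT1, ABL1, CONT2 and ABL2. Female-typed Spp1-high cells of CONT1 had 440 CPM against 128, and the 4 of ABL1 had 0 UMIs, for which the 95% exact Poisson interval reaches 116 CPM. A fit on male-typed cells of CONT2 and ABL2, the 2 libraries with enough of them, gave a log2 difference of 1.96 for *Mgp* (edgeR adjusted p = 8.65e-16). The gap was narrow in CONT2 and wide in ABL2, where few cells held most of the *Mgp* UMIs of all Spp1-high cells.

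The other gene that was higher, *Gcnt2*, encodes a glycosyltransferase that branches poly-N-acetyllactosamine chains on cell surface glycans. It was scarce, with 8, 4, 25 and 47 UMIs in Spp1-high cells, or 74.1, 35.0, 57.5 and 76.0 CPM against 13.3, 19.1, 27.5 and 30.3 (log2 1.3, SE 0.25, edgeR adjusted p = 0.0170). Its mean of 41.6 CPM is under the 50 CPM set for naming genes, and it is given here because only 2 genes were higher. The gap rested on few cells in replicate 1, since 3 cells of CONT1 and 3 of ABL1 held its UMIs, and without 1 cell ABL1 was at 18.4 CPM. After thinning a *Gcnt2* UMI was found in 6.67%, 0%, 19.4% and 20.3% of Spp1-high cells (unthinned 20%, 17.6%, 36.1% and 47.3%), 2.89%, 5.25%, 6.01% and 9.34% of Spp1-low cells and 4.97%, 6.27%, 17.3% and 3.65% of Ptprc-positive cells. The exact 95% intervals of Spp1-high and Ptprc-positive cells were apart in ABL2 alone, and that of the 0 of 17 cells in ABL1 reaches 19.5%.

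*Igfbp5* was the most abundant gene that fell. It stood at 4869 CPM in Spp1-high and 6641 in Spp1-low cells of CONT1, 2849 and 5352 in ABL1, 7365 and 12112 in CONT2, and 2942 and 5507 in ABL2. The Spp1-high level was the lower one in 4 of 4 libraries (log2 -0.79, SE 0.12, edgeR adjusted p = 0.00294). *C4b* fell from 1146 to 861, 821 to 419, 1032 to 580 and 725 to 377 CPM in the same library order (log2 -0.83, SE 0.14, adjusted p = 0.00661). Both calls held in 16 of 20 alternatives, among them the fits on thinned cells, in DESeq2 and on male-typed cells. They were lost without ABL1 (log2 -0.76, adjusted p = 0.0914 for *Igfbp5*, and log2 -0.81, adjusted p = 0.0691 for *C4b*).

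*Prelp*, a leucine-rich proteoglycan gene, stood at 241, 69.9, 209 and 144 CPM in Spp1-high cells and 384, 298, 374 and 258 CPM in Spp1-low cells (log2 -1.0, edgeR adjusted p = 0.0104). *Col6a5* and *P3h2*, which encodes a prolyl 3-hydroxylase that modifies collagen, were lower too (log2 -1.11 and -1.49). In male-typed cells *Prelp*, *Col6a5* and *Ptn* did not pass (log2 -0.73, -0.75 and -0.81, edgeR adjusted p = 0.0901, 0.0830 and 0.345). The *Prelp*, *Col6a5*, *P3h2* and *Ptn* calls were lost without CONT1 (log2 -1.09, -1.27, -1.50 and -1.62). Those of *Prelp* and *Col6a5* were also lost without ABL1 (log2 -0.85 and -0.95), that of *P3h2* without CONT2 (-1.09) and that of *Col6a5* without ABL2 (-1.13). *Ptn*, which encodes the secreted heparin-binding factor pleiotrophin, stood at 185, 332, 46.0 and 67.9 CPM in Spp1-high cells against 777, 591, 567 and 88.0 CPM (log2 -1.73, SE 0.30, edgeR adjusted p = 0.00863). The gap in *Ptn* was wide in both CONT libraries and narrow in ABL2. *Cxcl10* was at 37.0, 0, 36.8 and 6.47 CPM in Spp1-high cells and 82.4, 11.8, 210 and 54.2 CPM in Spp1-low cells, which gave log2 -2.47 (SE 0.29, edgeR adjusted p = 4.24e-05). In CONT2 it stood at 250 CPM in female-typed and 84.5 CPM in male-typed Spp1-low cells, and male-typed Spp1-high cells had 39.6 CPM. Its Spp1-high levels rest on 4, 0, 16 and 4 UMIs, and the fitted fold of a gene with a 0 is no bound. In ABL2, 3 of the 182 Spp1-low cells held 57 of the 77 *Cxcl10* UMIs. Without the 3 cells with most UMIs in each library, the Spp1-low levels were 56.7, 6.99, 150 and 14.4 CPM.

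**Figure D3:**
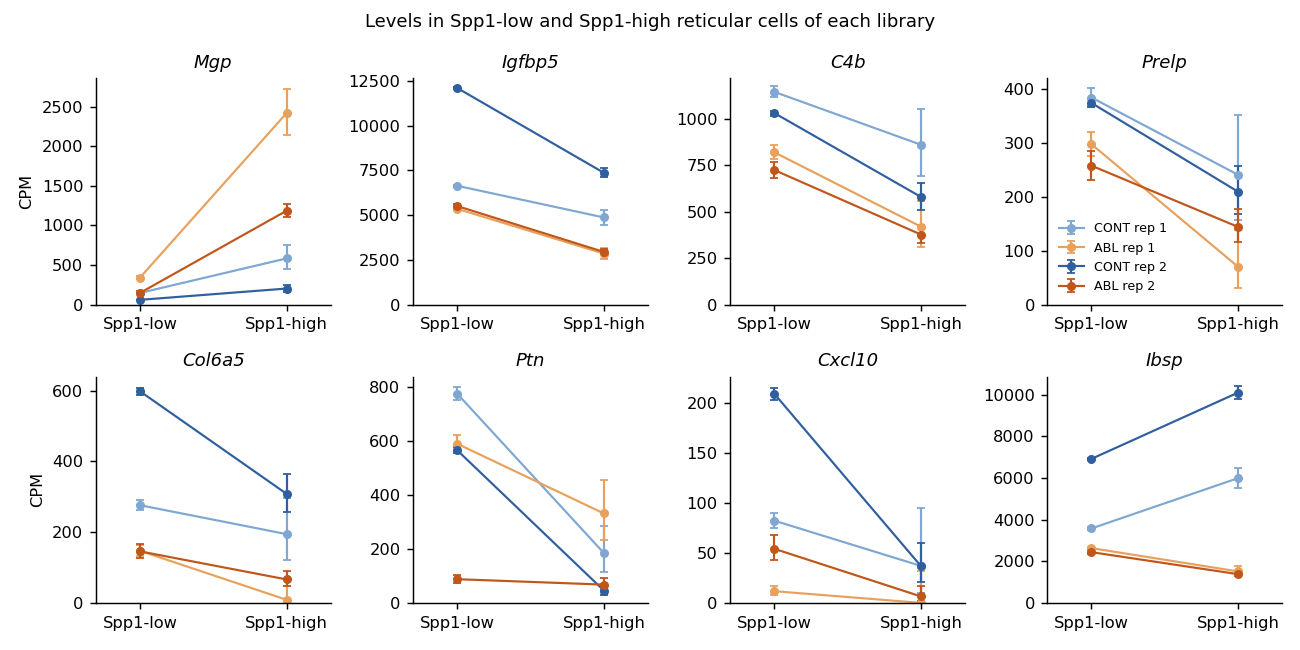
CPM of 8 genes in the summed Spp1-low and Spp1-high cells of each library (linear axes, lines join the classes of a library, error bars are 95% exact Poisson intervals of the counts). *Mgp* is higher and *Igfbp5*, *C4b*, *Prelp*, *Col6a5*, *Ptn* and *Cxcl10* are lower in Spp1-high cells of each library, whereas *Ibsp* is higher in Spp1-high cells of CONT and lower in those of ABL.

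Of the remaining genes that were lower, 5 are abundant in blood cells: *Hba-a1*, *Hba-a2*, *Hbb-bs* and *Hbb-bt*, the hemoglobin genes, and *S100a8*, a granulocyte calprotectin subunit. The erythroid list summed to 9534, 5977, 253 and 3346 CPM in Spp1-high cells of CONT1, ABL1, CONT2 and ABL2, and to 32140, 6212, 2303 and 6043 CPM in Spp1-low cells. All 7 of its genes had UMIs in both classes except in Spp1-high cells of CONT2, where 2 were at 0, and *Hbb-bs* was its most abundant gene in each sum. The granulocyte list summed to 8331, 6318, 145 and 121 CPM against 13730, 9888, 159 and 745. A few cells carried these sums. In ABL2, 1 Spp1-high cell held 1206 of the 1244 *Hbb-bs* UMIs of its class, and 1 Spp1-low cell held 420 of 465 *S100a8* UMIs and another 2667 of 4531 *Hbb-bs* UMIs. The erythroid or the granulocyte list reached 5% of the UMIs in 27, 6, 4 and 3 Spp1-low cells and in 1 Spp1-high cell, that of ABL2. Without these cells, an alternative chosen after the data were seen, the erythroid sums were 9534, 5977, 253 and 135 CPM in Spp1-high and 12340, 5957, 286 and 263 CPM in Spp1-low cells, and the granulocyte sums were 8331, 6318, 145 and 123 against 10400, 6232, 159 and 106 CPM. None of the 5 genes then passed (log2 -0.56, -0.15, -0.40, -0.33 and -0.20 for *Hba-a1*, *Hba-a2*, *Hbb-bs*, *Hbb-bt* and *S100a8*), and 10 of the 16 calls remained. The *Mgp*, *Igfbp5*, *C4b*, *Prelp*, *Col6a5*, *P3h2*, *Ptn* and *Cxcl10* calls were among these. The last 2 of the 14 genes, *Ptgs2* and *Cbln1*, did not have the same sign in the 4 libraries.

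Levels were also followed across the whole range of *Spp1*. Reticular cells were grouped by their *Spp1* share into cells without a UMI, under 0.05%, 0.05 to 0.2%, 0.2 to 0.4% and 0.4% or more. *Mgp* went from 131 CPM in the first group to 761 in the last in CONT1, from 155 to 3587 in ABL1, from 42.9 to 200 in CONT2 and from 117 to 2593 in ABL2. The steps between were uneven. In CONT2 the highest *Mgp* level lay under the cutoff, at 315 CPM (95% exact Poisson interval 280 to 354) in cells with 0.05 to 0.2% *Spp1*, against 204 and 200 CPM in the groups above it. In ABL2 the last group alone stood apart, since the cells with 0.2 to 0.4% *Spp1* had 144 CPM and those just under the cutoff 130 CPM. *Igfbp5* stood at 6758 and 1956, 6598 and 3502, 12186 and 7136, and 6444 and 2494 CPM in the first and the last group. The last group held 3, 9, 16 and 31 cells in the 4 libraries, so its values rest on few cells. Cells in these groups share their libraries, and the trend was not tested.

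**Figure D4:**
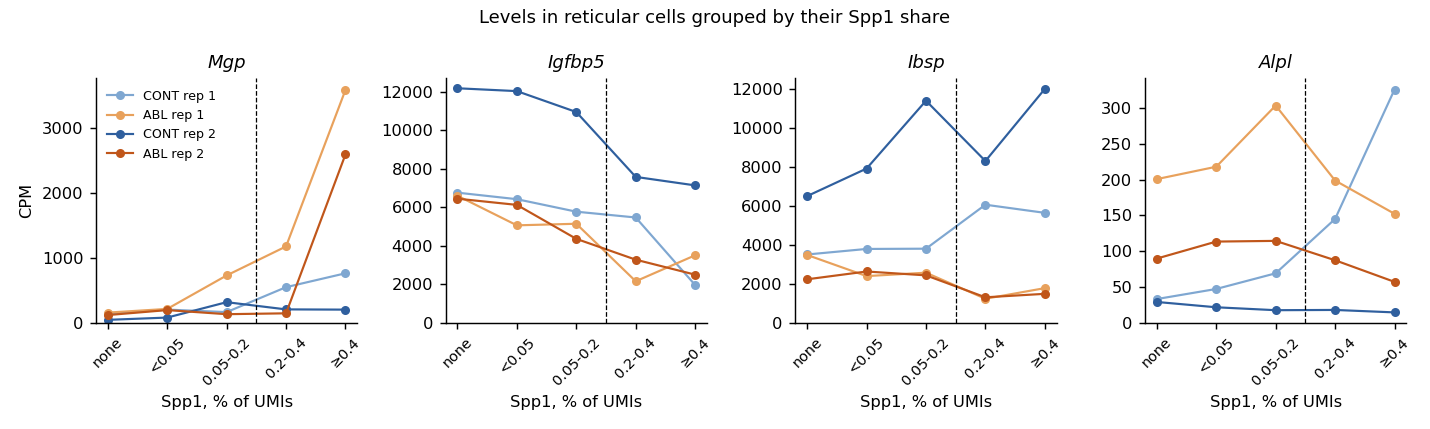
CPM of *Mgp*, *Igfbp5*, *Ibsp* and *Alpl* in reticular cells grouped by their *Spp1* share (percent of UMIs), 1 line per library; the dashed line marks the cutoff of 0.2%. *Mgp* is highest in the top group of 3 libraries and just under the cutoff in CONT2, *Igfbp5* is lower in the top group than in cells without a UMI in each library, and *Alpl* is highest in the top group in CONT1 alone.

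Osteoblast genes were next asked about directly, since *Spp1* is itself a gene of osteoblasts. Of 27 genes of osteoblast commitment and mineralization, 19 could be tested and 0 passed in either direction. By unadjusted p, 2 were higher and 1 lower at 0.05 in edgeR, and the median log2 difference was -0.03, against -0.000759 over all 8011 genes. *Runx2*, the master transcription factor of the lineage, stood at 185, 157, 239 and 160 CPM in Spp1-high cells and 159, 199, 255 and 172 CPM in Spp1-low cells. Its fitted difference was -0.12 on the log2 scale with SE 0.16. *Col1a1*, the main collagen of bone, stood at 491, 2307, 69.0 and 1423 CPM against 390, 2682, 185 and 1566.

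*Alpl*, the alkaline phosphatase gene of pre-osteoblasts, did not have the same sign in the 4 libraries. It was 176 against 37.6 CPM in CONT1, where 3 cells held 15 of its 19 UMIs, and the Spp1-high level was the lower one in the other libraries (175 against 238, 16.1 against 27.4 and 74.4 against 107 CPM). *Sp7*, which encodes osterix, had 37.0, 43.7, 0 and 35.6 CPM in Spp1-high cells and 8.89, 54.8, 3.39 and 19.7 CPM in Spp1-low cells. Neither passed (log2 -0.07 and 0.44, SE 0.30 and 0.40). The cells with at least 0.2% *Spp1* among Wif1-positive cells, the class in which *Alpl* was abundant (761, 986, 119 and 532 CPM), were 12 of 45, 40 of 83, 15 of 260 and 124 of 327.

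In the further groups few genes passed. Of the niche and reticular identity list, 27 of 30 genes were tested and only *Igfbp5* passed, with a list median of -0.20. None passed of 33 tested of 39 collagen and injury matrix genes (median -0.08), 16 of 22 adipogenic genes (-0.05), 29 of 44 Wnt pathway genes (-0.17) and 24 of 33 genes of BMP, activin and TGF-beta signalling (-0.01). The same held for 24 of 28 interferon-stimulated genes (0.03), 11 of 15 osteoclast regulators (0.09), all 33 genes of ER folding and collagen modification (0.03) and all 24 immediate early and heat shock genes, where the median was 0.00. Of 16 imprinted growth genes 13 were tested, of 22 glycolysis and hypoxia genes 18 and of 21 proliferation genes 9, and none passed (medians -0.16, -0.05 and -0.24). Of 30 inflammatory chemokines and cytokines, 23 were tested and 3 were lower: *Cxcl10*, *C4b* and *Ptgs2*, the gene of cyclooxygenase-2. By unadjusted edgeR p, which was under 0.05 for 408 of the 8011 genes, 0 niche genes were higher and 8 lower, 1 matrix gene was higher and 6 lower, 2 Wnt genes were higher and 5 lower, and 3 inflammatory genes were higher and 6 lower. The other lists of this paragraph had 0 to 3 such genes in either direction. *Lpl*, the lipoprotein lipase gene of the adipogenic list, had 1999, 2517, 6098 and 5051 CPM in Spp1-high cells and 2521, 2811, 4970 and 4588 CPM in Spp1-low cells. The receptors of osteopontin were not among the genes that differed either. *Itgb1*, the integrin beta 1 chain, stood at 463, 419, 782 and 474 CPM against 362, 428, 692 and 495, and 0 of 7 tested receptor genes passed.

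Markers of some further cell types were sparse, unlike the mature osteoblast and osteocyte list given above. The periosteal, joint and fibroblast list summed to 74.1, 35.0, 4.60 and 61.5 CPM in Spp1-high cells, the endothelial list to 9.26, 17.5, 11.5 and 11.3 CPM, and no gene of either had enough counts to be tested. The chondrocyte list summed to 92.6, 166, 4.60 and 79.3 CPM, against 54.8, 213, 12.5 and 126 CPM in Spp1-low cells, with *Comp*, *Col2a1*, *Col9a2* and *Comp* as its most abundant genes. Of its 9 genes found, 5, 4, 7 and 2 were at 0 in Spp1-high cells. The part of chondrocyte RNA in the *Mgp* difference was not tested. Mural markers summed to 204, 201, 225 and 180 CPM against 214, 231, 179 and 358 CPM in Spp1-low cells, and *Notch3* gave 139, 78.6, 184 and 102 CPM of the Spp1-high sums. Of 5 mural genes tested 0 passed, 4 were lower at an unadjusted edgeR p under 0.05, and the list median was -1.01. Over all 8011 genes, 408 had such a p in either direction, and the median was -0.000759. The osteoclast list summed to 324, 402, 82.8 and 191 CPM, against 286, 298, 130 and 186 CPM in Spp1-low cells. *Ctsk* was its most abundant gene in each sum, and of 2 osteoclast genes tested 0 passed.

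Spp1-high cells of ABL were then compared with those of CONT, to ask what injury changed within the class. Single genes of matrix, *Fn1*, *Col1a1* and *Col3a1* among them, were higher in ABL, and some chemokine and heat shock genes, such as *Cxcl1*, *Ccl7* and *Hspa1a*, were lower, whereas most genes of these lists did not pass. With 15 to 74 Spp1-high cells in a library, single cells weighed on many of these levels, as given beside them. The 4 Spp1-high sums were fitted with the replicate as a block, which left 1 residual degree of freedom. Of 4363 genes tested, 29 were higher in ABL (0.665%) and 47 lower (1.08%) at an adjusted p under 0.05 in edgeR. In Spp1-low cells 11221 genes could be tested, of which 163 were higher (1.45%) and 114 lower (1.02%), or 203 and 79 without TMM scaling. Both comparisons depend on the replicate block, without which 0 genes passed in either class (115 and 257 at an unadjusted p under 0.05). With 1 library left out, no block could be kept, and 28, 18, 0 and 1 genes passed in Spp1-high cells without CONT1, ABL1, CONT2 and ABL2. In Spp1-high cells DESeq2 with the block called 7 genes: *Col1a1*, *Col3a1*, *H19* and *Mgp* higher, and *Angptl1*, *Hspa1a* and *Ibsp* lower. After thinning 2 genes passed, *Col1a1* and *Col3a1*, and after free RNA subtraction 45 passed. Sex composition moved with the condition in both replicates, and the test within male-typed cells was not run, since too few male-typed Spp1-high cells were left in replicate 1. The block treats CONT and ABL of a replicate as a pair, which the *Xist* levels put in doubt for replicate 2.

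The matrix genes came first. *Fn1*, the fibronectin gene, stood at 111 and 376 CPM in Spp1-high cells of CONT and ABL in replicate 1, and at 9.20 and 438 in replicate 2 (log2 3.42, SE 0.55, edgeR adjusted p = 4.75e-07). *Col1a1* stood at 491 and 2307, and 69.0 and 1423 CPM (log2 3.19, adjusted p = 1.65e-05), and *Col3a1*, the collagen of early repair tissue, at 222 and 1101, and 94.3 and 1351 CPM (log2 3.04, adjusted p = 1.10e-05). In each of these genes both ABL levels exceeded both CONT levels, also without the 3 cells with most UMIs in each library (*Fn1* 44.98, 273, 2.48 and 336, *Col1a1* 158, 1893, 42.3 and 1212, and *Col3a1* 130, 733, 66.1 and 1196 CPM). The Spp1-low cells of the same libraries had 35.7 and 376, and 8.58 and 251 CPM of *Fn1*, and 390 and 2682, and 185 and 1566 CPM of *Col1a1*. The level of *Col1a1* outside these cells moved with the condition. Empty droplets held 396, 5289, 353 and 11620 CPM of it, and a *Col1a1* UMI was found after thinning in 7.46%, 70.3%, 1.53% and 22.1% of Ptprc-positive cells, against 66.7%, 100%, 8.33% and 87.8% of Spp1-high cells (unthinned 16.8%, 93.1%, 4.59% and 56.9% against 80.0%, 100%, 36.1% and 97.3%). With estimated free RNA subtracted, *Fn1*, *Col1a1* and *Col3a1* still passed (log2 3.38, 3.09 and 3.03, edgeR adjusted p = 0.00352, 0.00352 and 0.00174). Of the 15 alternatives that gave a test, *Fn1* passed in 9, and *Col1a1* and *Col3a1* in 11 each. Their log2 changes ran from 1.72 to 5.41, 1.95 to 4.61 and 2.29 to 3.82 over the alternatives. The matrix list had 31 of 39 genes tested in Spp1-high cells, of which 4 were higher (*Fn1*, *Col3a1*, *Olfml3* and *Thbs2*) and 0 lower, with a median of 0.31 against 0.01 over all genes. *Olfml3*, which encodes an olfactomedin-like secreted protein, stood at 259 and 402, and 4.60 and 257 CPM (log2 2.36, adjusted p = 0.000903), so the change was small in replicate 1. Its call was lost after free RNA subtraction (log2 2.36, edgeR adjusted p = 0.0792) and in 6 more of the 15 alternatives that gave a test, over which it ran from 0.36 without CONT2 to 5.91 without CONT1.

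Of 10 tested genes of the osteoclast regulation list, *Mmp2*, *Timp1* and *Mmp9* were higher and *Timp3* was lower in ABL. *Mmp2*, a gelatinase gene, stood at 37.0 and 280 CPM in replicate 1 and at 6.90 and 116 CPM in replicate 2 (log2 3.39). *Mmp9*, a further gelatinase gene, stood at 46.3 and 183, and 13.8 and 58.2 CPM (log2 1.93, edgeR adjusted p = 0.0180), but 1 cell held 16 of its 21 UMIs in ABL1, and without that cell the ABL1 level was 46.9 CPM, close to that of CONT1. The *Mmp9* call was lost with the 0.1% cutoff (log2 0.85, edgeR adjusted p = 0.372) and in 6 more of the 14 alternatives that gave a test. *Mmp11*, the stromelysin-3 gene, was at 9.26 and 131, and 20.7 and 98.7 CPM (log2 2.44). Its CONT1 level was 1 UMI, and in ABL2 1 cell held 15 of its 61 UMIs. The *Mmp11* call passed in 8 of the 14 alternatives that gave a test. Of the tissue inhibitors of metalloproteinases, *Timp1* was higher (92.6 and 559, and 34.5 and 85.7 CPM, log2 1.84, edgeR adjusted p = 0.0103) and *Timp3* lower (37.0 and 17.5, and 110 and 19.4 CPM, log2 -2.38, adjusted p = 0.00138). In ABL1 1 cell held 32 of the 64 *Timp1* UMIs, and without the top 3 cells of each library *Timp1* stood at 46.9 and 126, and 22.5 and 71.2 CPM. *Timp3* rested on 4 UMIs in 2 cells of CONT1, 2 UMIs in 1 cell of ABL1, and 48 and 12 UMIs in CONT2 and ABL2, of which 1 cell held 16 and 6. *Mgp* was higher in ABL within Spp1-high cells as well (583 and 2420, and 202 and 1186 CPM, log2 2.22, adjusted p = 0.00398). In replicate 2 this rested on a few cells, since 3 of the 74 ABL2 cells held 68.5% of the *Mgp* UMIs, without which the level was 390 CPM. ABL2 cells with 0.2 to 0.4% *Spp1* had 144 CPM against 204 in CONT2, and an *Mgp* UMI was found after thinning in 25.7% of ABL2 and 30.6% of CONT2 Spp1-high cells. Among imprinted growth genes *Igf2*, a fetal growth factor, went from 27.8 to 218 and from 29.9 to 137 CPM (log2 2.33, adjusted p = 0.000516), with 17 of its 25 UMIs of ABL1 in 1 cell. *H19*, the noncoding RNA next to it, had 0 UMIs in Spp1-high cells of both CONT libraries and 131 and 141 CPM in those of ABL. Of its 15 UMIs in ABL1, 12 came from 1 cell.

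Some genes of inflammation and stress were lower in ABL. *Il6*, an inflammatory cytokine gene, stood at 74.1 and 35.0 CPM in CONT1 and ABL1, and at 281 and 43.7 CPM in CONT2 and ABL2 (log2 -2.42, edgeR adjusted p = 0.000516). Its counts were 8, 4, 122 and 27 UMIs, and 3 cells held 65.6% of those in CONT2 and 77.8% in ABL2. The neutrophil chemokine gene *Cxcl1* went from 870 to 245 and from 702 to 180 CPM (log2 -1.99, adjusted p = 0.00412), and *Ccl7*, which encodes a monocyte chemokine, from 759 to 114 and from 340 to 157 CPM (log2 -1.88, adjusted p = 0.00664). For *Cxcl1*, 3 cells held 72 of the 94 UMIs of CONT1, and without the top 3 cells of each library it stood at 262 and 92.8, and 461 and 126 CPM. In CONT1 1 cell held 61 of the 82 *Ccl7* UMIs, and without it the level was 218 CPM. Of the inflammatory list, 20 of 30 genes were tested, 5 were lower (*Il6*, *Cxcl1*, *Ccl7*, *Cxcl10* and *Nfkbiz*) and 1 was higher (*Ccl9*, from 18.5 to 105 and from 29.9 to 98.7 CPM, with 9 of its 12 ABL1 UMIs in 1 cell), with a median of -0.90. Of the immediate early and heat shock list, 23 of 24 genes were tested and 3 were lower, the chaperone genes *Hspa1a*, *Hspa1b* and *Hsph1* (list median -0.69). *Hspa1a* went from 315 to 43.7 and from 736 to 38.8 CPM (log2 -3.88, adjusted p = 5.49e-09), though 3 cells held 88.2% of its UMIs in CONT1 and 77.8% in CONT2. Heat shock and immediate early genes are also induced by tissue dissociation, and the part of cell handling was not tested.

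The genes of osteoblast commitment did not move as 1 group in Spp1-high cells. Of 16 tested, *Col1a1* was higher and *Ibsp* was lower in ABL. *Ibsp* encodes bone sialoprotein, an RGD-containing mineral-binding protein whose gene lies on the same chromosome and strand as *Spp1* (chromosome 5, 104299171 to 104311469, plus strand). Its CONT and ABL levels were 5998 and 1512 CPM in the first replicate, 10106.5 and 1380 CPM in the other (log2 -2.52, SE 0.70, edgeR adjusted p = 0.0237). It was lower in ABL in each of 17 alternatives, from -2.94 to -1.78, but passed in 7 of the 15 that gave a test. The call was lost after free RNA subtraction (edgeR adjusted p = 0.0618), without TMM scaling (0.0693), without the filter on low counts (0.0861), after thinning (0.103), without the replicate block, and without ABL1, CONT2 or ABL2. *Alpl* (176 and 175, 16.1 and 74.4 CPM), *Runx2* (185 and 157, 239 and 160 CPM) and *Sp7* (37.0 and 43.7, 0 and 35.6 CPM) did not pass. In Spp1-low cells *Alpl*, *Sp7* and *Postn* passed, with log2 changes of 2.21, 2.47 and 4.14, but the difference between the classes in these genes did not pass its own test (*Alpl* -1.31, adjusted p = 0.434, *Sp7* -0.27, adjusted p = 0.997, and *Postn* -2.76, adjusted p = 0.704).

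**Figure D5:**
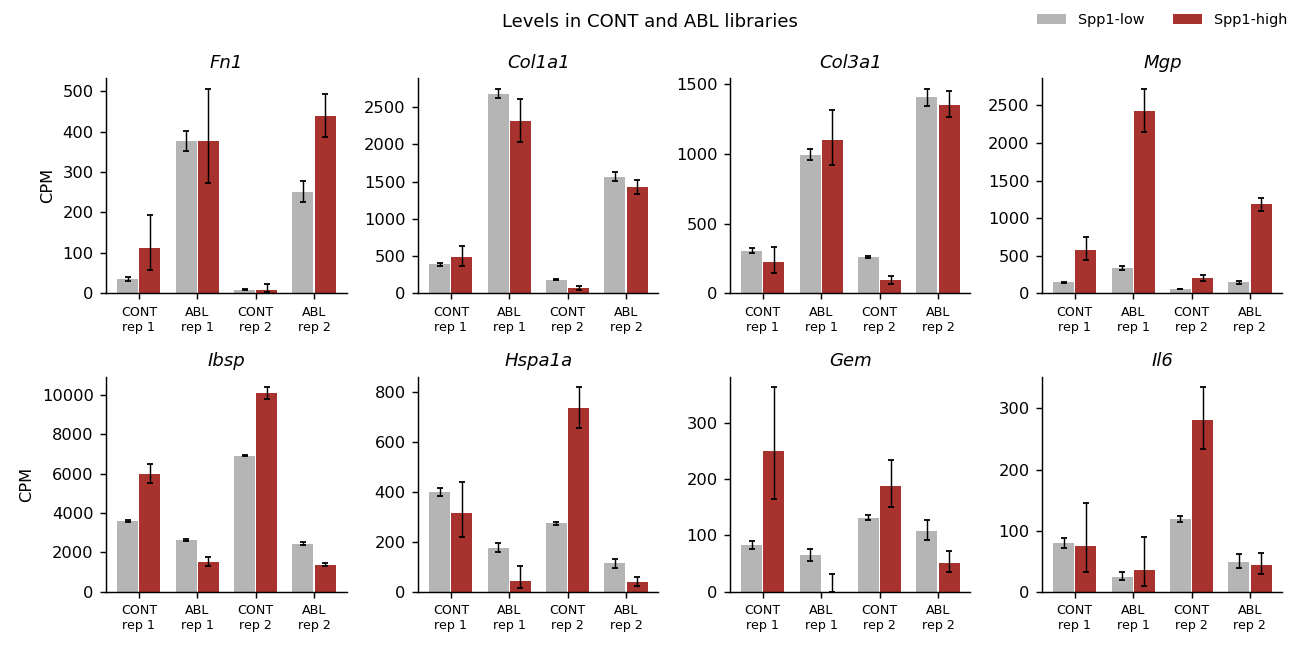
CPM of 8 genes in the summed Spp1-low (grey) and Spp1-high (red) reticular cells of each library, with 95% exact Poisson intervals of the counts (linear axes from 0). *Fn1*, *Col1a1*, *Col3a1* and *Mgp* are higher and *Ibsp*, *Hspa1a* and *Gem* lower in Spp1-high cells of ABL than in those of CONT of the same replicate.

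Whether the contrast of Spp1-high with Spp1-low cells itself differed between ABL and CONT was tested as a class by condition term over the 8 sums. *Ibsp*, an abundant gene in these cells, passed this test. In CONT it was higher in Spp1-high than in Spp1-low cells (5998 against 3578 CPM in replicate 1 and 10106.5 against 6922 in replicate 2). In ABL it was lower in them (1512 against 2633 and 1380 against 2439 CPM). The classes were ordered in opposite ways in the 2 conditions and in the same way in both replicates, and the class by condition term was -1.42 (SE 0.22, edgeR adjusted p = 3.16e-07). Within male-typed cells the *Ibsp* levels were 5728 against 3375 CPM in CONT1 and 10512 against 9712 in CONT2, so the CONT2 gap was small there, and 956 against 3032 CPM in ABL1 and 1339 against 2370 in ABL2. Female-typed Spp1-low cells of CONT2 had 6127 CPM. By *Spp1* share, CONT2 cells just under the cutoff had 11422 CPM of *Ibsp*, above the 8319 CPM of the cells with 0.2 to 0.4%. The CONT2 cells with 0.4% or more had the highest level, 12029 CPM. *Ibsp* was found in 100% of Spp1-high cells of both CONT libraries and in 76.5% and 58.1% of those of ABL after thinning. In Spp1-low cells these shares were 97.6% and 98.8% in CONT, and 89.5% and 79.1% in ABL, and in Ptprc-positive cells they were 13.7%, 27.4%, 9.18% and 5.84% (CONT1, ABL1, CONT2 and ABL2).

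Of 8943 genes tested for this term, 11 were higher (0.123%) and 14 lower (0.157%). The lower ones included *Hspa1a* (-2.35), *Gem*, a small GTPase gene induced by stimulation (-2.24), the acute phase gene *Serpina3n* (-1.98), *Cxcl1* (-1.21) and *Tnc*, the gene of the injury matrix protein tenascin-C (-0.98). Among those higher were *Ptn* (2.32), *Mmp9* (2.19), the fatty acid binding protein gene *Fabp4* (2.68) and 4 hemoglobin genes. Without the reticular cells in which blood cell genes reached 5% of the UMIs, 15 genes passed, all among the 25, and the hemoglobin genes did not (*Hba-a1* -0.23, *Hba-a2* -0.25, *Hbb-bs* -0.12 and *Hbb-bt* 0.57), nor did *Cxcl1* (-1.16) and *Tnc* (-0.99). *Ibsp* passed (-1.49, edgeR adjusted p = 0.000253). Single cells weighed on some of these: 1 cell held 444 of the 718 *Fabp4* UMIs of ABL2 and 16 of the 21 *Mmp9* UMIs of ABL1. Without the 3 Spp1-high cells with most UMIs, *Hspa1a* stood at 51.8 CPM in CONT1 and 185 in CONT2, under the Spp1-low levels of 401 and 274 CPM, whereas all Spp1-high cells of CONT2 gave 736 CPM. *Gem* likewise stood at 81.4 and 114 CPM without its top 3 cells, against 82.8 and 132 CPM in Spp1-low cells and 249.9 and 189 CPM in all Spp1-high cells of CONT1 and CONT2. Without CONT1, ABL1, CONT2 and ABL2 in turn, 40, 14, 6 and 4 genes passed. The *Ibsp* term ran from -1.38 to -1.55 in these fits and did not pass without CONT2 or ABL2 (edgeR adjusted p = 0.114 and 1.0), and over its 16 alternatives it ran from -1.55 to -0.63, the latter after thinning (adjusted p = 0.999), and *Fabp4* was at 0.60 without ABL2. The *Serpina3n* term was -0.087 without CONT2. *Serpina3n* and *Gem* had 0 UMIs in Spp1-high cells of ABL1, so their fitted terms bound nothing. Over its 16 alternatives the *Gem* term ran from -12.1 to -1.04. After thinning the *Mmp9* and *Tnc* terms were -0.50 and 0.038. *Mgp* did not pass (1.09, SE 0.29, adjusted p = 0.0620). With CONT2 limited to male-typed cells, as an alternative chosen after the data were seen, 6 genes passed, among them *Ibsp* (-1.21, edgeR adjusted p = 0.0328), *Hspa1a* (-2.37), *Gem* (-2.21) and *Fabp4* (3.01). DESeq2 called 0 genes (87 at an unadjusted p under 0.05).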

How the data were processed

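The authors sorted tdTomato+ cells, ran Cell Ranger (3.0.0 in the replicate 2 file headers, version not given in the sources used here for replicate 1) on mm10 with transgene sequences added, and the deposited values are unnormalized UMI counts of every barcode, empty droplets included. From these counts, cells were called with at least 500 genes, 2700 UMIs and at most 20% mitochondrial UMIs (replicate 1) or 1000 genes, 4000 UMIs and 15% (replicate 2), which kept 3419, 1438, 2397 and 2541 cells (CONT1, ABL1, CONT2, ABL2) with medians of 5720, 7447, 12906 and 12275 UMIs. The study names Seurat for its clustering, which was not used here. The members and gene lists were chosen with earlier results of these data known.

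Counts were summed per library and class (at least 10 cells) and tested in edgeR 4.0.16 (R 4.3.3, quasi-likelihood F test, TMM, filter on low counts, Benjamini-Hochberg threshold 0.05). The 7 selecting genes were left out of the tests. The replicate block follows the study's design of left and right femurs, although *Xist* puts in doubt that CONT2 and ABL2 came from the same mice. The ABL against CONT calls rest on this block. Deviations of same-numbered libraries correlated at 0.67 (Spp1-low) and 0.50 (Spp1-high), which includes chemistry. With 200 genes changed by log2 2 in simulated data, the fits recovered 179 of 189 tested (class), 161 of 191 (ABL against CONT, Spp1-low), 124 of 161 (Spp1-high) and 112 of 196 (class by condition), with 2.72%, 2.42%, 0.800% and 5.09% of calls false. The simulated counts were drawn from the fitted model itself, without uneven cells, sex differences or doubtful pairs. These values thus check the procedure and do not give the share of false calls in the data. Smaller changes were not simulated.

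Genes named were, per comparison, the 12 largest rises and 12 largest falls past the threshold with 1 sign in all pairs and a mean of at least 50 CPM (not all are printed), the 4 most abundant of each list, and osteoblast genes that the study displays. The reticular and lineage markers *Lepr*, *Kitl*, *Ebf3*, *Ifitm5*, *Csf1r* and *Cdh5* come from the marker list. *Gcnt2*, *Cbln1*, *Ccl7*, *Ccl9*, *Hsph1*, *Nfkbiz*, *Thbs2*, *Timp1* and *Timp3* fall outside this rule and were chosen after their values were seen, as were some pairings of a named gene with a comparison. Doublets were left in, since the study names no such step; Scrublet (scanpy 1.11.5) marked 2.22%, 1.18%, 0.0417% and 0.551% of cells in that order, under its working range in CONT2. Gene coordinates are from GENCODE on GRCm38. Alternatives were other *Spp1*, *Cxcl12*, *Adipoq* and *Bglap* cutoffs, thinning, doublet removal, tdTomato-positive or male-typed cells, free RNA subtraction, DESeq2 1.42.0, other scalings, no filter, no block, leaving out each library and, added after the data were seen, leaving out reticular cells in which the erythroid or the granulocyte list reached 5% of UMIs.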

Additional observations from a re-analysis of the deposited data

Results flagged for a closer look

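Each gene below was picked out because its difference between Spp1-high and Spp1-low cells was not the same in ABL as in CONT by the class by condition test (edgeR adjusted p under 0.05); values are log2 differences in ABL minus those in CONT. The term was negative for *Hspa1a* (-2.35), *Gem* (-2.24), *Serpina3n* (-1.98), *Rmnd1* (-1.71), *Slc26a7* (-1.56), *Ibsp* (-1.42), *Cxcl1* (-1.21), *S100a9* (-1.10) and *Tnc* (-0.98). It was positive for *Gas1* (1.3), *Plac8* (1.54), *Kcnq1ot1* (2.00), *Mmp9* (2.19), *Ptn* (2.32) and *Fabp4* (2.68). The hemoglobin genes *Hba-a2* (1.53), *Hbb-bs* (1.90), *Hbb-bt* (1.96) and *Hba-a1* (1.99) were positive too, but in ABL2 1 Spp1-high cell held 1206 of 1244 *Hbb-bs* UMIs. Without the reticular cells in which an erythroid or a granulocyte gene list reached 5% of the UMIs (27, 6, 4 and 3 Spp1-low cells and 1 Spp1-high cell), *Hba-a2*, *Hbb-bs*, *Hbb-bt* and *Hba-a1* were at -0.25, -0.12, 0.57 and -0.23 and did not pass. *S100a9* was then at 0.22. In ABL2 1 Spp1-low cell held 453 of 507 *S100a9* UMIs, without which the level went from 357 to 38.2 CPM, against 43.7 CPM in Spp1-high cells. *H19* had 0 UMIs in Spp1-high cells of both CONT libraries, so its fitted 9.38 depends on the prior count and bounds nothing. *Gem* and *Serpina3n* had 0 UMIs in Spp1-high cells of ABL1, so their fitted terms bound nothing either. Some of these values came near 0 in alternatives: *Slc26a7* (-0.0020) and *Serpina3n* (-0.087) without CONT2, and *Tnc* (0.038) and *Mmp9* (-0.50) after thinning, where the sign turned. Of 16 alternatives, *Gas1* and *Tnc* passed in 3, *Slc26a7* in 4, *S100a9* and *Cxcl1* in 5, and *Ibsp*, *Hspa1a* and *Gem* in 11. Of the 58 *Gas1* UMIs in Spp1-high cells of ABL1, 29 came from 1 cell, as did 15 of the 20 *Ptn* UMIs of CONT2. DESeq2 called 0 genes for this term (87 at an unadjusted p under 0.05), and sex composition differs between ABL and CONT in both replicates.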

How the results depend on the processing

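The 16 genes called between Spp1-high and Spp1-low cells became 10 with a *Spp1* cutoff of 0.1%, 0 with 0.5% (2 libraries, 339 at an unadjusted p under 0.05), 5 after thinning, 6 in DESeq2, 63 without the filter on low counts, 0 without the library block (112 unadjusted), 10 without cells with 5% blood cell UMIs (added after the data were seen), 37 in male-typed cells and 3 with at least 30 Spp1-high cells a library (2 libraries each), and 6 to 22 with 1 library left out. The 277 genes called between ABL and CONT in Spp1-low cells became 97 after thinning, 69 in DESeq2, 95 in male-typed cells, 0 without the replicate block (257 unadjusted) and 0 to 8 with 1 library left out. In Spp1-high cells the 76 calls became 150 with the 0.1% cutoff, 2 after thinning, 45 after free RNA subtraction, 7 in DESeq2, 0 without the replicate block (115 unadjusted) and 28, 18, 0 and 1 without CONT1, ABL1, CONT2 and ABL2. The 25 class by condition calls became 6 with the 0.1% cutoff, 6 after thinning, 0 in DESeq2 (87 unadjusted), 0 with the replicate block in place of the library block (264 unadjusted), 15 without cells with 5% blood cell UMIs and 6 with CONT2 limited to male-typed cells (both added after the data were seen), and 4 to 40 with 1 library left out. Shares of Spp1-high cells in CONT1, ABL1, CONT2 and ABL2 were 3.04%, 15.8%, 3.98% and 46.1% with the 0.1% cutoff and 0.0949%, 2.05%, 0.612% and 8.98% with 0.5%.

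The sign turned for *Hba-a2* between the classes (0.093 with the 0.5% cutoff, 0.10 in male-typed cells), for *Rgs5* between ABL and CONT in Spp1-low cells (-0.71 without ABL2, -0.48 in replicate 1 alone, 2.77 in replicate 2 alone), for *Serpina3n* between ABL and CONT in Spp1-high cells (0.64 without CONT2), and for the class by condition terms of *Mmp9* (-0.50) and *Tnc* (0.038) after thinning and of *Hba-a1* (-0.23), *Hba-a2* (-0.25), *Hbb-bs* (-0.12) and *S100a9* (0.22) without cells with 5% blood cell UMIs. The free RNA estimate of Spp1-low cells of ABL2 fell from 7.62% to 0.792% without those cells. Other causes were not tested. ABL against CONT in Spp1-high cells with the 0.5% cutoff or in male-typed cells, and the class by condition term with the 0.5% cutoff, were not run, since too few libraries held 10 such cells. Few Spp1-high cells per library limit the depth of each sum.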
